A study of Mus musculus with 12 samples.

Results

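The 45 DNA replication genes described here were found in the count table by their gene symbols, 1 line for each, among 23282 lines. They encode the proteins that open replication origins, unwind and copy DNA, supply its building blocks and start S phase. All 45 had enough reads to be tested. RNA had been sequenced from 12 MC38 tumors, 3 in each of 4 groups, collected on day 19. MC38 is a single mouse colon carcinoma cell line, and it was implanted under the flank skin of wild-type female C57BL/6 mice. The mice were bought at 6 weeks of age and acclimated before implantation. Con mice received saline containing DMSO and Tween, and an IgG2a antibody. SFIH mice received 50 mg/kg of a fraction of Inula helenium rich in sesquiterpene lactones, injected into the abdomen each day, and the IgG2a antibody. PD mice received 200 μg of an antibody against PD-1 at each of 2 injections a week, and Comb mice received both agents. The RNA came from tumor tissue, so that host leukocytes, stroma and neighboring tissue can be in the same libraries, and fewer dividing cells cannot be told apart from less RNA of these genes per cell. It is not stated that each library came from a different mouse, and p-values measure the spread between these 12 libraries.

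A cell licenses its origins in G1, when ORC, CDC6 and CDT1 load the MCM2-7 helicase onto DNA. In S phase CDC45 and the GINS complex turn the loaded MCM ring into an active helicase, DNA polymerases α, δ and ε copy the strands, and PCNA, placed by replication factor C, holds the polymerases on DNA. Many of these genes are transcribed at the G1/S boundary under E2F transcription factors, and their RNA is abundant in proliferating tumors. Cyclin E, with CDK2, drives entry into S phase.

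Each library held between 7870741 and 12261032 counted reads, and in all libraries except that of Comb replicate 3 each of the 45 genes had at least 76 reads. Levels are given as reads per 1000000 counted reads of the library (CPM). CPM carries no TMM scaling, the correction for composition used in the fits, whose factors ran from 0.760 to 1.12. With it, tumors with close levels can change order, as Con replicate 3 and SFIH replicate 3 did in Mcm7, Rfc1 and Mki67. Rn45s made up 4.28% to 17.1% of the counted reads. The libraries hold 3′ ends of RNA, gene length was not divided out, and levels were not compared between genes. Comb replicate 3 stood apart from the other 11 tumors in these genes and in markers of other cell types, and the counts and medians of the comparisons that hold it are given with and without it. It also enters the estimate of the spread in the comparisons that do not hold it. The labels call the material tumor cells. The sum of 6 epithelial markers was 2.86 to 20.6 CPM in the 11 tumors, and 5 of the 6 were at 0 in at least 1 tumor. In Comb replicate 3 it was 88.0 CPM, and 5 of the 6 were highest there. Skin markers were also highest there (306 against 2.66 to 28.5 CPM), and the source of the epithelial reads was not tested. Macrophage, fibroblast and leukocyte markers were read in every tumor.

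In the 11 tumors without Comb replicate 3, the replication genes kept a narrow range. The ratio of the highest to the lowest of the 11 tumors was 1.22 to 3.27 over the 45 genes, with a median of 1.80, and it was under 2 for 33 genes. In CPM without TMM, Comb replicate 3 lay below the lowest of the other tumors for 45 of 45. With TMM scaling it did not for Pcna, where it was above Con replicate 1, PD replicate 2 and PD replicate 3. The account below follows the order of the steps at the origin and gives, for each step, the values in every tumor of the gene with the highest mean CPM over the 12.

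Origin loading was represented by Orc1 and Orc6, subunits of the origin recognition complex, and by Cdc6 and Cdt1, which bring the helicase to the origin. Cdt1 was at 132, 172 and 144 CPM in the Con tumors, 165, 152 and 118 with SFIH, 147, 112 and 137 with PD, and 131, 71.6 and 7.19 with Comb. Comb replicate 1 was close to the lowest Con tumor, and Comb replicates 2 and 3 were below the other 10 tumors. Cdc6 was at 56.2, 55.6 and 53.2 CPM in the Con tumors, 67.9, 77.8 and 59.9 with SFIH, 49.7, 41.4 and 43.6 with PD, and 59.1, 42.6 and 0.911 with Comb. In CPM all 3 SFIH tumors were above all Con tumors, and all 3 PD tumors were below them. With TMM scaling PD replicate 1 was not below Con replicate 3.

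The 6 subunits of the MCM2-7 helicase, the ring that unwinds DNA, were all far lower in Comb replicate 3 and differed less among the other tumors. Mcm7 was at 385, 342 and 336 CPM in the Con tumors, 334, 319 and 309 with SFIH, 399, 340.0 and 352 with PD, and 347, 248 and 21.5 with Comb. All 3 SFIH tumors were just below all Con tumors, PD and Comb replicate 1 overlapped with Con, and Comb replicates 2 and 3 were below the other 10. Over the 11 tumors the 6 genes had ratios of highest to lowest of 1.27 to 1.83. Mcm10, Cdc45 and the 4 GINS genes encode the factors that activate this ring. Gins2 was at 71.2, 67.8 and 82.3 CPM in the Con tumors, 85.0, 84.7 and 68.1 with SFIH, 76.0, 55.9 and 83.0 with PD, and 69.5, 50.0 and 10.9 with Comb, with overlap of the Con, SFIH and PD groups. Gins3 was at 46.5, 41.6 and 36.4 CPM in the Con tumors, 35.7, 36.1 and 32.1 with SFIH, 45.4, 29.3 and 39.4 with PD, and 29.1, 24.8 and 3.64 with Comb, and all 3 Comb tumors were below the other 9. Gins4 was at 57.6, 46.2 and 50.2 CPM in the Con tumors, 56.6, 68.8 and 56.7 with SFIH, 44.0, 35.4 and 45.8 with PD, and 49.8, 51.1 and 26.6 with Comb, and its lowest tumor apart from Comb replicate 3 was PD replicate 2.

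The polymerase genes cover the primase and polymerase α (Prim1, Prim2, Pola1, Pola2), which lay down primers, polymerase δ (Pold1, Pold2) and polymerase ε (Pole, Pole2). Pola1 was at 123, 141 and 120.4 CPM in the Con tumors, 80.5, 108 and 137 with SFIH, 133, 136 and 119 with PD, and 102, 111 and 20.1 with Comb, and apart from Comb replicate 3 its lowest tumor was SFIH replicate 1. Prim1, the catalytic subunit of primase, was at 43.3, 43.7 and 48.8 CPM in the Con tumors, 55.9, 62.4 and 55.8 with SFIH, 47.6, 43.3 and 45.7 with PD, and 48.7, 36.8 and 6.19 with Comb. Its 3 SFIH tumors were above the other 9. Pole, the catalytic subunit of polymerase ε, was at 53.6, 48.5 and 43.9 CPM in the Con tumors, 65.7, 50.2 and 42.3 with SFIH, 39.3, 34.8 and 36.5 with PD, and 47.5, 29.7 and 3.01 with Comb, and all 3 PD tumors were below all Con and SFIH tumors. Pole2 had the widest range of the 45 genes in the 11 tumors (3.27-fold), with Con replicate 1 at 6.93 CPM against 21.5 and 20.8 in the other Con tumors.

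Pcna, the sliding clamp, was at 121, 153 and 169 CPM in the Con tumors, 215, 199 and 146 with SFIH, 164, 123 and 122 with PD, and 177, 155 and 106 with Comb, so that even Comb replicate 3 was near the lowest Con tumor. Rfc1, the large subunit of the clamp loader, was at 361, 339.7 and 327 CPM in the Con tumors, 307, 315 and 299.6 with SFIH, 338, 274 and 324 with PD, and 289, 220.5 and 70.1 with Comb, and all 3 SFIH tumors and all 3 Comb tumors were below all Con tumors. Lig1, the ligase that joins Okazaki fragments, was at 488, 435 and 442 CPM in the Con tumors, 522, 446 and 495 with SFIH, 657, 442 and 530.3 with PD, and 557, 345 and 27.6 with Comb, with Comb replicate 1 above all Con tumors and Comb replicate 2 below them. Fen1, which removes flaps at those fragments, was at 37.2, 62.9 and 81.8 CPM in the Con tumors, 99.5, 79.4 and 58.9 with SFIH, 89.6, 54.1 and 70.0 with PD, and 91.7, 80.6 and 23.6 with Comb. Con replicate 1 was the lowest of the 11 tumors for Fen1, as it was for Pole2 and Pola2. Rpa2, a subunit of the single-strand binding protein, was at 179, 143 and 168 CPM in the Con tumors, 179.8, 137 and 136 with SFIH, 179, 153 and 164 with PD, and 199, 147 and 44.3 with Comb, and its groups overlapped.

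Among the genes of nucleotide supply, Rrm1, the large subunit of ribonucleotide reductase, was at 217, 197 and 185 CPM in the Con tumors, 184, 235 and 203 with SFIH, 226, 161 and 223 with PD, and 197, 166 and 15.9 with Comb, and Con, SFIH and PD overlapped. Ung, which removes uracil from DNA and was placed with this group, was at 42.0, 45.7 and 46.6 CPM in the Con tumors, 48.0, 45.8 and 33.5 with SFIH, 44.4, 38.5 and 48.3 with PD, and 37.1, 21.6 and 3.73 with Comb. Its 3 Comb tumors were below all Con and PD tumors. Dnmt1, which copies DNA methylation onto the new strand, was at 111, 122 and 104 CPM in the Con tumors, 144, 87.4 and 81.7 with SFIH, 137, 90.6 and 125 with PD, and 93.8, 57.9 and 12.5 with Comb. The 3 Comb tumors were below all Con tumors, while SFIH replicates 2 and 3 were also below them. 

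The ranges over all 45 genes are given by step. The ratio of the highest to the lowest of the 11 tumors was 1.65 to 2.40 in the 4 origin loading genes, 1.22 to 2.01 in the 6 genes of helicase activation, 1.37 to 3.27 in the 8 polymerase genes and 1.58 to 2.22 in the 6 genes of the clamp and its loader. It was 1.46 to 2.67 in the 4 strand processing genes, 1.46 to 2.23 in the 5 genes of nucleotide supply, 1.41 to 1.88 in the 3 genes of G1/S control and 1.66 to 2.48 in the 3 genes of chromatin copying. As a share of the median of the 11 tumors, Comb replicate 3 held 1.64% to 8.34% in the 4 origin loading genes, 0% to 53.0% in the 6 genes of helicase activation, 6.85% to 49.3% in the 8 polymerase genes and 7.15% to 68.1% in the 6 genes of the clamp and its loader. The share was 5.66% to 36.2% in the 4 strand processing genes, 6.41% to 19.9% in the 5 genes of nucleotide supply, 7.31% to 13.0% in the 3 genes of G1/S control, 6.86% to 28.4% in the 3 genes of chromatin copying and 5.38% to 17.0% in MCM2-7. E2f1, the transcription factor of the G1/S boundary, was at 60.2, 68.6 and 57.5 CPM in the Con tumors, 76.5, 90.2 and 62.2 with SFIH, 69.3, 50.9 and 62.2 with PD, and 64.2, 50.5 and 6.56 with Comb, with SFIH replicates 1 and 2 the highest of the 12 tumors. Uhrf1, which brings DNMT1 to hemimethylated DNA, was at 61.4, 65.0 and 58.9 CPM in the Con tumors, 82.2, 69.3 and 58.7 with SFIH, 88.2, 57.9 and 78.6 with PD, and 80.9, 40.4 and 4.46 with Comb, and Con, SFIH and PD overlapped. The plot of all genes by tumor shows the pale columns of the 11 tumors and the dark column of Comb replicate 3.

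**Figure D1:**
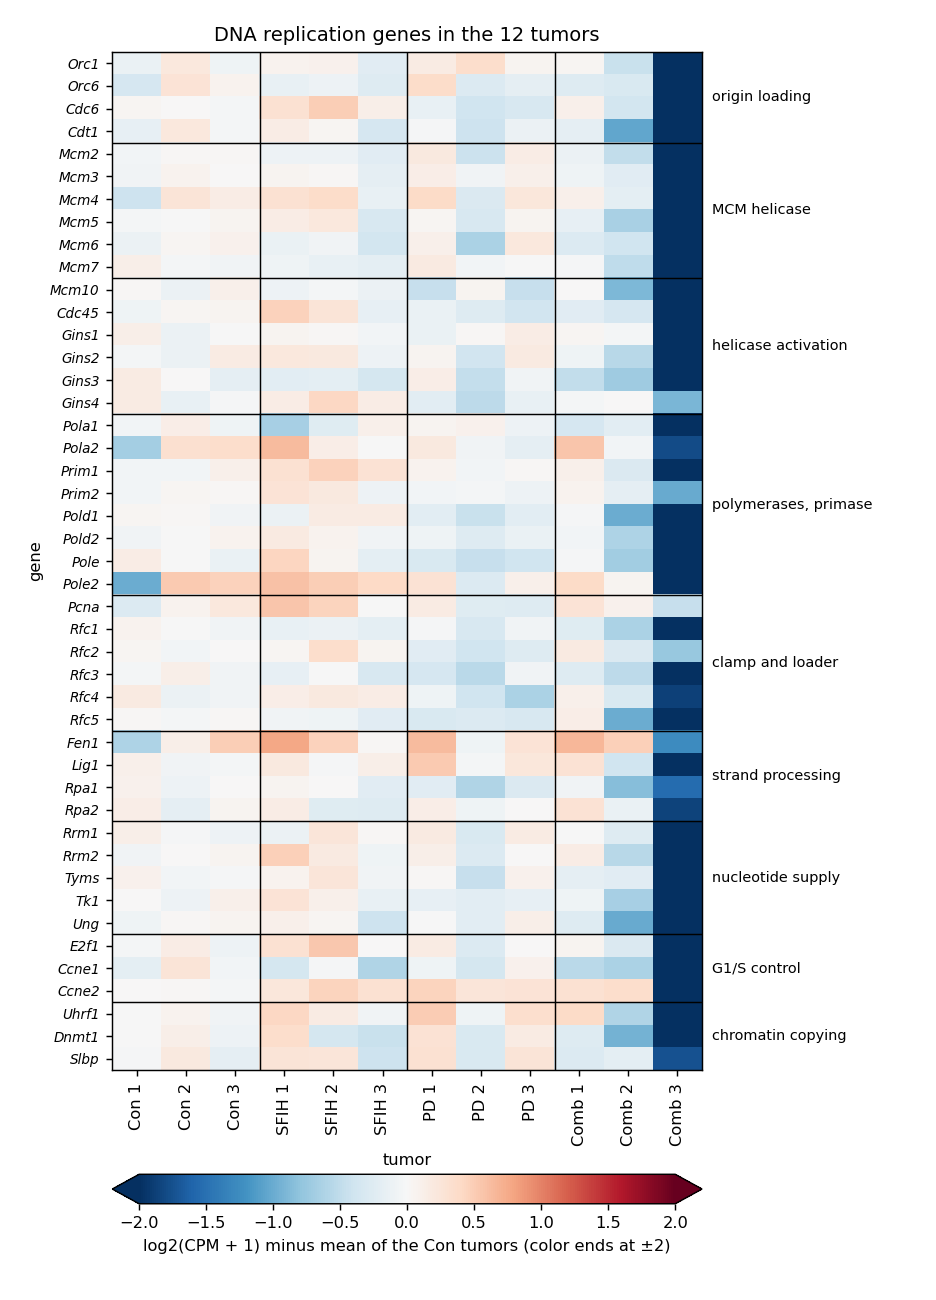
Each row is 1 of the 45 replication genes and each column 1 of the 12 tumors, and color gives log2(CPM + 1) minus the mean of the 3 Con tumors (blue lower, red higher, ends at ±2). The right-hand column, Comb replicate 3, is the lowest in every row, and Pcna, Rfc2, Prim2 and Gins4 are the rows where it is palest.

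The size of the difference in Comb replicate 3 varied over the steps of replication. Each gene was set against the mean CPM of Comb replicates 1 and 2, as a description of 1 library chosen after its values were seen, and with no test. By this measure 35 of the 45 genes were at least 4-fold lower, which is 77.8% of them, against 16.1% of 13425 genes. The median was 6.90-fold, against 1.33-fold over all genes, and 14 genes were at least 10-fold lower. The origin loading genes were the lowest as a group, with a median of 17.5-fold, and all 4 of them were at least 10-fold lower. Medians were 8.75-fold for E2f1, Ccne1 and Ccne2, 7.87-fold for nucleotide supply, 7.58-fold for MCM2-7, 6.08-fold for chromatin copying, 5.77-fold for helicase activation and 5.63-fold for the polymerases. The clamp and its loader and the strand processing genes had the smallest, 3.77-fold and 3.78-fold. No test was made of these differences between groups of genes.

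Mcm10, which helps to activate the loaded helicase, had no read in Comb replicate 3, which at 3 reads for the floor allows up to 0.273 CPM. It was at least 172-fold lower than in the other Comb tumors, which held 61.5 and 32.3 CPM. Cdc6 had 10 reads, or 0.911 CPM (95% Poisson interval 0.437 to 1.67), 55.8-fold lower. Orc1 had 9 reads, or 0.820 CPM (95% Poisson interval 0.375 to 1.56), 20.8-fold lower. Lig1 was 16.4-fold lower and Mcm5 14.4-fold. At the other end, Pcna was 1.57-fold lower, Rfc2 1.65-fold, Gins4 1.90-fold, Prim2 2.03-fold and Rpa1 2.21-fold. Intervals and the floor cover counting error only. The other 5 genes under 4-fold were Slbp (3.02), Rfc1 (3.63), Fen1 (3.65), Rpa2 (3.91) and Rfc4 (3.91), and Slbp, the histone mRNA binding protein, was the only one of the 10 outside the clamp, polymerase, GINS and strand processing groups.

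An overlap of exons limits some of these values. In the GENCODE M21 annotation 9 of the 45 genes share exon sequence with a gene on the opposite strand (Ccne2 with Ints8, Fen1 with Tmem258, Gins2 with Gse1, Mcm7 with Ap4m1 and Cops6, Orc6 with Vps35, Rfc2 with Lat2, Rfc4 with Eif4a2, Rfc5 with Wsb2, and Tk1 with Afmid). Whether the counting used strand is not given in the sources used here. Lat2, an adaptor protein of leukocytes, was at 88.0 CPM in Comb replicate 3 and at 20.6 to 39.7 in the other 11 tumors, so the value of Rfc2 there is uncertain. Eif4a2, which overlaps Rfc4, was also highest there, at 81.5 CPM against 49.7 to 71.7 in the others. Tmem258, which overlaps Fen1, was at 105 CPM there, within its range of 98.2 to 189 in the others. Rfc4 and Fen1 were among the genes under 4-fold, and their values in Comb replicate 3 are uncertain as well. The part of the overlap was not tested in any of the genes listed.

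**Figure D2:**
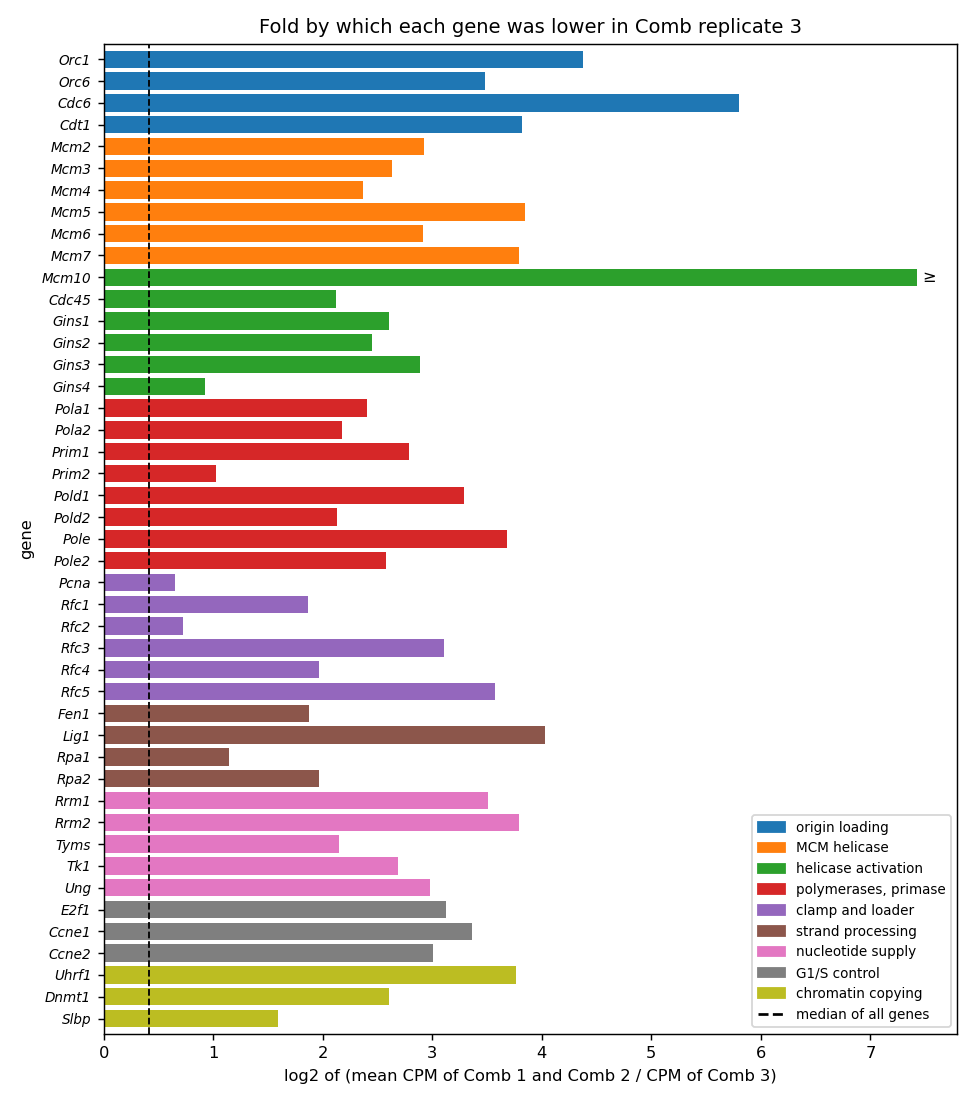
Bars give, for each of the 45 genes, log2 of the mean CPM of Comb replicates 1 and 2 divided by the CPM of Comb replicate 3, colored by step of replication, with the median of all genes as a dashed line. All 45 bars lie to the right of that line, the longest being Mcm10 (a lower bound, ≥), Cdc6 and Orc1 and the shortest Pcna, Rfc2 and Gins4.

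The promoters of these genes are shown because E2F and NF-Y are known regulators of the group. RefSeq promoters (GRCm38.p6, 250 bases before to 50 after the start) were given for 37 of the 45 genes. E2F-type letters, searched on both strands as TTTCCCGC, TTTGGCGC, TTTGCCGC or TTTCGCGC, were found in 15 of the 37, or 40.5%. Counted by promoter they were in 15 of 45, or 33.3%, against 2.26% of all 32851 promoters of that length. The CCAAT letters of NF-Y sites were in 23 of the 37 genes, and in 57.8% of the 45 promoters, against 37.4% of all promoters. The 15 genes with E2F-type letters were all at least 4-fold lower in Comb replicate 3, with a median of 9.80-fold, while 15 of the 22 without them were, with a median of 5.47-fold. For CCAAT the order was the other way, with 18 of 23 genes and a median of 7.40-fold with these letters, and 12 of 14 and 8.31-fold without them. This is a description of 1 library without a test, and a match is not evidence of a bound site. The 200 bases just before the start are given 5′ to 3′ on the gene's own strand for 4 of the genes that were lowest in Comb replicate 3 relative to the other Comb tumors and for Pcna, which differed least, and capitals mark E2F-type letters (8 bases) and CCAAT or its reverse ATTGG.
Cdc6, chr11:98907951-98908150, plus strand: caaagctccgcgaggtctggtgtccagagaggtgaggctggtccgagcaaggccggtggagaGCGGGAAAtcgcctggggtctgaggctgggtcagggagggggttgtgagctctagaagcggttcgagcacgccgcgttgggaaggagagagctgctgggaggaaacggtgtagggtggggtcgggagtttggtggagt
Orc1, chr4:108579254-108579453, plus strand: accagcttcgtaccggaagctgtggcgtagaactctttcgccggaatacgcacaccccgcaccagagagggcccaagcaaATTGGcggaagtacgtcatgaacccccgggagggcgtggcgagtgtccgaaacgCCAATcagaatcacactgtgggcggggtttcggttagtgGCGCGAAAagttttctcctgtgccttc
Mcm5, chr8:75109309-75109508, plus strand: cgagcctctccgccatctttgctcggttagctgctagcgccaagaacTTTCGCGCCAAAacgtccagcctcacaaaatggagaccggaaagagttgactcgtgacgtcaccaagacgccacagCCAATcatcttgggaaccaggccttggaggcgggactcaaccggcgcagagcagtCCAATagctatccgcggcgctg
Mcm10, chr2:5012792-5012991, minus strand: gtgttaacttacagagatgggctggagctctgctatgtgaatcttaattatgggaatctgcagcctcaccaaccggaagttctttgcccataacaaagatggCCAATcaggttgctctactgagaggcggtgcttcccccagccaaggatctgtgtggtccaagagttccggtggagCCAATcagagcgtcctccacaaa
Pcna, chr2:132253181-132253380, minus strand: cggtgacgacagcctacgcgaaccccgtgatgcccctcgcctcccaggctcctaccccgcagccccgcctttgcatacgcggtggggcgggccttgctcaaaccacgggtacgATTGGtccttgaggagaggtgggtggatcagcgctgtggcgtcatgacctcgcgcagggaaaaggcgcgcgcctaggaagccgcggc
Cdc6 holds a single E2F-type match, and no CCAAT. Orc1 holds a single E2F-type match next to the start and CCAAT boxes on either strand. In Mcm5 the long run in capitals is a pair of overlapping E2F-type matches on opposite strands. Mcm10 and Pcna hold CCAAT boxes only, and these genes had the largest and the smallest difference. Lig1, which ranks between Orc1 and Mcm5 (16.4-fold lower), is not printed. None of its promoters holds a match of either kind in the 200 bases, though an E2F-type match lies in the full length of a Lig1 promoter.

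Summed over the 45 genes, the level was 4916, 5055 and 4992 CPM in the Con tumors, 5369.9, 5230.0 and 4599 with SFIH, 5439.8, 4275 and 5043 with PD, and 5003, 3773 and 754 with Comb. With TMM scaling, Comb replicate 3 was at 992 CPM. Markers of several other cell types were higher in that tumor. All 6 macrophage markers were highest there, and their sum was 701, 422 and 818 CPM in the Con tumors, 925, 822 and 762 with SFIH, 779, 1464 and 1099 with PD, and 882, 2750.4 and 9202 with Comb. In CPM without TMM, the lowest sum of replication genes in PD (replicate 2) and in Comb (replicate 3) went with the highest macrophage sum of the group. In Con and SFIH it did not. With TMM scaling it did so in Con as well, in replicate 3 (4462 CPM of replication genes and 732 of macrophage markers), and still not in SFIH. The sum of 5 fibroblast markers was 11243 CPM in Comb replicate 3 against 728 to 7475 in the 11 others, and 3 of the 5 were highest there. All 10 skeletal muscle markers (sum 5847 against 11.4 to 768 CPM), all 4 leukocyte markers (2773 against 222 to 995), all 5 skin markers (306 against 2.66 to 28.5) and 5 of 6 T cell markers (233 against 21.3 to 104) were also highest there, as were 4 of 6 adipocyte markers (953 against 37.2 to 389) and 4 of 5 erythroid markers (1841 against 65.6 to 1430.5). Not all lists were: the sum of 4 endothelial markers, 96.8 CPM, lay within the range of the 11 others (56.3 to 108), with 2 of the 4 highest there, and 1 of 4 B cell markers was highest there (sum 14.7 against 0.936 to 9.25). Among the 11 others, the muscle sum was highest in Comb replicate 1, at 768 CPM, and next in PD replicate 1, at 152. The fibroblast, adipocyte, leukocyte and T cell sums were highest in Comb replicate 2. Those of skin and erythroid markers were highest in SFIH replicate 1 and PD replicate 2. Comb replicates 1 and 2 are the reference for the folds of Comb replicate 3. The part of the cells marked by these lists in the replication result was not tested.

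The difference in Comb replicate 3 was larger for genes of mitosis. Over 25 mitosis genes the median was 22.2-fold lower and 24 were at least 4-fold lower. Their sum was 5362, 5357 and 5258 CPM in the Con tumors, 4689.7, 5649.7 and 5184 with SFIH, 5663, 4768 and 5416 with PD, and 5154, 3762 and 237 with Comb. The ratio of the replication sum to the mitosis sum was therefore 3.18 in Comb replicate 3, against 0.887 to 1.15 in the 11 other tumors. E2F-type letters were in 1 of 22 mitosis genes with a promoter and CCAAT in 18 of 22. Of 58 other genes of replication, among them further ORC, polymerase and replication fork genes, 32 were at least 4-fold lower, with a median of 4.86-fold.

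**Figure D3:**
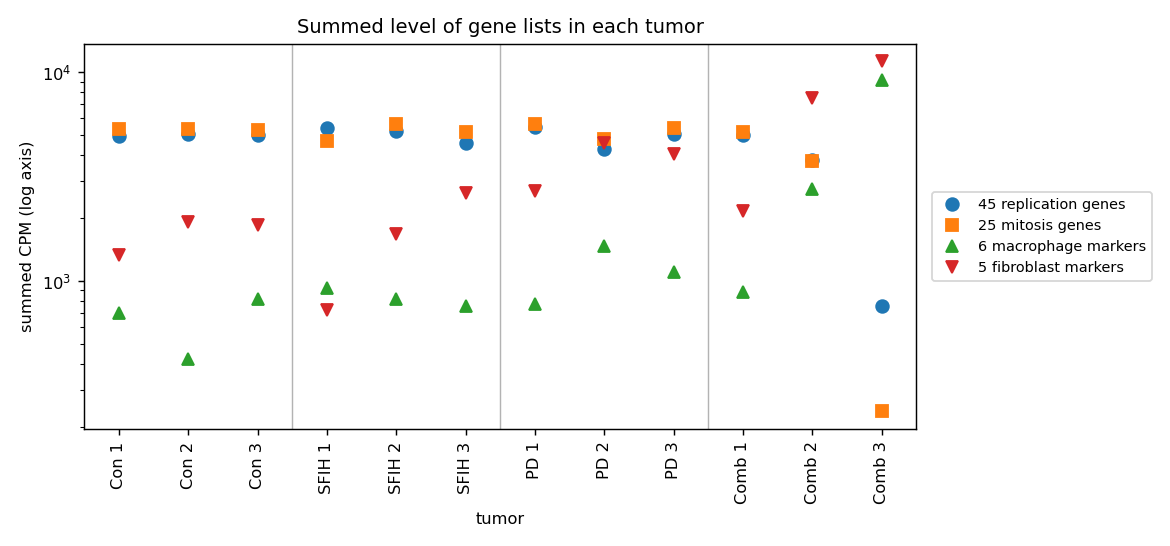
Summed CPM on a log axis for the 45 replication genes, 25 mitosis genes, 6 macrophage markers and 5 fibroblast markers in each of the 12 tumors. Replication and mitosis sums lie close together in 11 tumors and part in Comb replicate 3, where both are at their lowest and both marker sums at their highest.

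The comparison of SFIH with Con asked for an effect of the plant fraction alone. No replication gene passed an adjusted p of 0.05 (quasi-likelihood test of edgeR, adjusted by Benjamini-Hochberg over all 13464 genes), where the share of all genes called was 0.0%, and none had an unadjusted p under 0.05, against 2.25% of all genes. The log2 fold changes of the 45 genes ran from −0.34 to 0.38 with a median of 0.06 (all genes 0.02), and 18 were under 0, against 47.0% of all genes. For PD against Con the count was also 0 (0.0% of all genes), with none under an unadjusted 0.05 against 3.99% of all genes. The median was 0.02 (all genes 0.01), and 19 genes were under 0, where the share of all genes was 48.3%. These 2 comparisons share the Con tumors. DESeq2 called none of the 45 in either, against 0.0297% of all genes in SFIH and 0.0446% in PD. The spread of each gene was estimated from all 12 tumors, so Comb replicate 3 enters these p-values although it is in neither comparison. For Prim1 in SFIH against Con, the log2 fold change was 0.35 with and without that tumor. Its SE was 0.45 with it and 0.12 without it. The genes with an unadjusted p under 0.05 without it are named further below.

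The combination was compared with Con, for the effect of both agents together, and with PD and with SFIH, for what the second agent added. Most replication genes were lower in Comb, and none of the 45 passed the threshold in any of these 3 comparisons, as was the case for all genes (0.0% in each). Against Con, 42 of 45 log2 fold changes were under 0 (52.0% of all genes), with a median of −0.53 (all genes −0.03). Against PD, 42 were under 0 (50.2%), with a median of −0.56 (all genes −0.0029). Against SFIH, all 45 were under 0 (53.6%), with a median of −0.54 (all genes −0.05). The 3 comparisons share the Comb tumors. An unadjusted p under 0.05 was reached by 0, 1 and 0 replication genes in the same order, against 25.3%, 18.0% and 19.0% of all genes. The 1 gene was Dnmt1 in Comb against PD, with a log2 fold change of −1.02 (SE 0.46, adjusted p = 0.277), and 2 of 3 Comb tumors lay below all PD tumors (two-sided exact permutation p = 0.2 on log2(CPM + 1), where 3 against 3 cannot give less than 0.1). The smallest adjusted p of any of the 45 was 0.205 against Con, 0.277 against PD and 0.326 against SFIH. DESeq2 also called 0 of 45 in each, against 14.8%, 3.1% and 8.59% of all genes.

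These values depended on single Comb tumors. Without Comb replicate 3 the medians were −0.08, −0.10 and −0.09 against Con, PD and SFIH, and 26, 30 and 32 genes were under 0, against 50.8%, 47.9% and 52.2% of all genes. In the fit without Comb replicate 1, the threshold was passed against Con by 2 replication genes and by 28.5% of all genes. These were Rpa1, the large subunit of the single-strand binding protein, at −0.81 (SE 0.19, adjusted p = 0.0127) and Ung at −1.50 (SE 0.48, adjusted p = 0.0417). Rpa1 also passed in that fit against SFIH, at −0.74 (SE 0.19, adjusted p = 0.0224), where 22.5% of all genes were called. Rpa1 was at 96.4, 84.5 and 90.8 CPM in the Con tumors, 94.4, 90.7 and 76.8 with SFIH, 77.5, 59.1 and 74.0 with PD, and 85.7, 49.5 and 30.6 with Comb, and all 3 PD tumors and Comb replicates 2 and 3 were below all Con tumors.

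Averaged over both groups that received an agent, anti-PD-1 gave 0 of 45 genes past the threshold (0.0% of all genes) and 0 under an unadjusted 0.05 (18.7%). Of the 45, 42 were under 0 (52.9%), with a median log2 fold change of −0.26, or −0.07 without Comb replicate 3 (27 of 45 under 0, against 51.3% of all genes). Without Comb replicate 1, Rpa1 passed at −0.51 (SE 0.13, adjusted p = 0.0217), where 17.1% of all genes were called. SFIH averaged in the same way gave 0 genes past the threshold (0.0%) and 0 unadjusted (14.5%), with 37 of 45 under 0 (47.6%) and a median of −0.26, or −0.02 without Comb replicate 3 (26 of 45 under 0, against 46.6%). The interaction, which asks whether the effect of SFIH differed with and without anti-PD-1, gave 0 genes (0.0%) and 0 unadjusted (2.55%). Its median was −0.56 with 44 of 45 under 0 (52.4%), and −0.10 with 31 under 0 (50.9%) without Comb replicate 3.

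**Figure D4:**
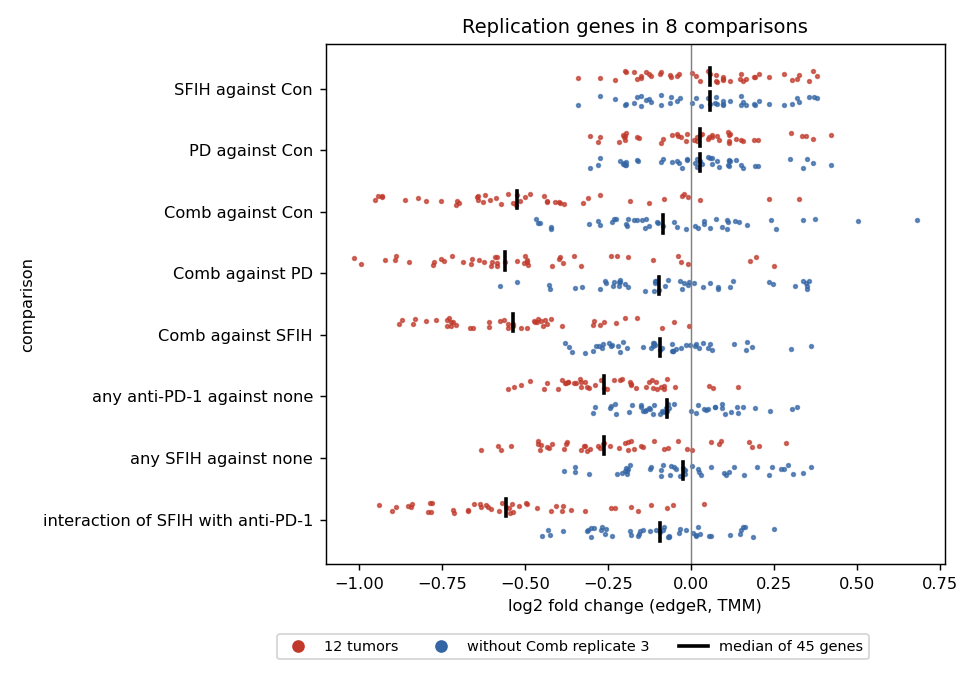
Points are the log2 fold changes of the 45 replication genes in 8 comparisons, fitted by edgeR to all 12 tumors (red) or without Comb replicate 3 (blue), and black ticks are medians. In each comparison that holds the Comb tumors the red points lie mostly left of 0 and the blue points on both sides.

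In the 11 tumors the spread was smaller, and the genes with an unadjusted p under 0.05 can be named, although none of the 45 passed after adjustment in any comparison, against 0.0367% of all genes in Comb against Con, 0.0147% for any anti-PD-1 and 0.0% in the other 6. Unless another tool is named, the values in this account of 11 tumors are from edgeR, and these genes were chosen after their values were seen. In SFIH against Con 18 of 45 genes were under 0, as over 12 tumors (46.9% of all genes), and 3 genes were higher and none lower, where 7.49% of all genes had an unadjusted p under 0.05. Prim1 differed by 0.35 (SE 0.12, adjusted p = 0.513), Ccne2 by 0.32 (SE 0.13, adjusted p = 0.593) and Cdc6 by 0.30 (SE 0.13, adjusted p = 0.627). For each of the 3, all SFIH tumors were above all Con tumors (exact permutation p = 0.1). In PD against Con 1 gene was higher (10.7% of all genes), Ccne2 at 0.42 (SE 0.13, adjusted p = 0.373), with all PD tumors above all Con tumors.

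In Comb against Con, 5 genes had an unadjusted p under 0.05 (18.8% of all genes). Ccne2 was higher by 0.50 (SE 0.14, adjusted p = 0.113) and Fen1 by 0.68 (SE 0.27, adjusted p = 0.214). Ung, Gins3 and Ccne1 were lower, at −0.46 (SE 0.18, adjusted p = 0.207), −0.47 (SE 0.18, adjusted p = 0.208) and −0.46 (SE 0.20, adjusted p = 0.239), and in these genes all 3 Comb tumors, replicate 3 included, lay below all Con tumors. In Comb against PD, 4 genes had an unadjusted p under 0.05 (9.02%), with Gins4 higher at 0.35 (SE 0.16, adjusted p = 0.547) and Ung, Dnmt1 and Gins3 lower at −0.52 (SE 0.18, adjusted p = 0.532), −0.58 (SE 0.24, adjusted p = 0.539) and −0.43 (SE 0.18, adjusted p = 0.547). In Comb against SFIH the 1 gene (10.8%) was Rpa2, at 0.36 (SE 0.15, adjusted p = 0.434). With 2 Comb tumors left, the fit takes their spread to be that of the other groups.

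For any anti-PD-1, 4 genes had an unadjusted p under 0.05 (19.5% of all genes). Ccne2 was higher at 0.30 (SE 0.09, adjusted p = 0.114) and Rpa2 at 0.24 (SE 0.10, adjusted p = 0.223). Cdc6 was lower at −0.23 (SE 0.10, adjusted p = 0.224) and Pole at −0.30 (SE 0.13, adjusted p = 0.236). For Cdc6 and for Pole, 5 of the 6 tumors given anti-PD-1 were below all 6 others in CPM (exact permutation p = 0.00866 for both over 12 tumors and 0.0173 over 11, not adjusted over the 28 pairs of a gene and a comparison named here). Comb replicate 1 was the exception for both. These levels carry no TMM scaling, without which the median log2 fold change of all genes in this comparison was −0.21. With TMM scaling, PD replicate 1 and Comb replicate 2 were not below Con replicate 3 in Cdc6, while the order held for Pole. Over 12 tumors edgeR gave Cdc6 −0.51 (SE 0.55, adjusted p = 0.649) and Pole −0.55 (SE 0.41, adjusted p = 0.503). For any SFIH, 9 genes passed an unadjusted 0.05 (15.5% of all genes). Pcna, Cdc6, Gins4 and Rfc2 were higher, by 0.34, 0.27, 0.29 and 0.23 on the log2 scale. Ccne1, Gins3, Ung, Rfc1 and Dnmt1 were lower, with −0.38, −0.35, −0.31, −0.20 and −0.35, and the adjusted p of all 9 was 0.206 or more. The interaction had 1 gene (1.55%), Prim1, at −0.39 (SE 0.18, adjusted p = 0.9998).

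The differences of the cyclin E genes had opposite signs in the 11 tumors. Ccne1 was at 32.4, 44.4 and 35.5 CPM in the Con tumors, 29.0, 36.4 and 24.2 with SFIH, 35.0, 29.0 and 39.4 with PD, and 25.2, 23.6 and 2.37 with Comb, and Ccne2 at 167, 169 and 160.0 CPM in the Con tumors, 192, 224 and 204 with SFIH, 225, 196 and 199 with PD, and 204, 211 and 25.9 with Comb. In Ccne2 all SFIH and PD tumors and Comb replicates 1 and 2 were above all Con tumors. In Ccne1 the 3 Comb tumors were below all Con tumors, and SFIH and PD overlapped with Con. The ratio of Ccne2 to Ccne1 reads was 5.14, 3.79 and 4.51 in the Con tumors, 6.63, 6.16 and 8.40 with SFIH, 6.45, 6.76 and 5.04 with PD, and 8.13, 8.96 and 10.9 with Comb. A ratio within a library does not depend on its scaling, and Comb replicate 3, in which both genes were low, had the highest ratio. The group means were 4.48 ± 0.675 (SD, n = 3) for Con, 7.06 ± 1.18 for SFIH, 6.08 ± 0.915 for PD and 9.34 ± 1.44 for Comb, or 8.54 ± 0.588 (n = 2) without Comb replicate 3. The SFIH and Comb tumors were all above all Con tumors, and PD replicate 3 lay under the highest Con tumor. The ratio was formed after the values of both genes were seen and was not tested. Ccne2 passed the threshold in a DESeq2 fit without Comb replicate 3, with 0.52 (SE 0.15, adjusted p = 0.0199) in Comb against Con, where 5.43% of all genes did, and 0.31 (SE 0.10, adjusted p = 0.0337) for any anti-PD-1, where 7.3% did. Over the 12 tumors its log2 fold change in Comb against Con was 0.02 (SE 0.49, adjusted p = 0.978) by edgeR, and −0.17 without TMM. Ints8, the gene on the other strand whose exons overlap those of Ccne2, was at 23.2, 50.6 and 44.4 CPM in the Con tumors, 61.8, 70.4 and 39.7 with SFIH, 53.4, 37.9 and 36.5 with PD, and 52.5, 58.0 and 18.3 with Comb. Comb replicates 1 and 2 were above all Con tumors in Ints8 too, while SFIH and PD overlapped with Con. Its part in the Ccne2 reads and in the ratio was not tested.

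**Figure D5:**
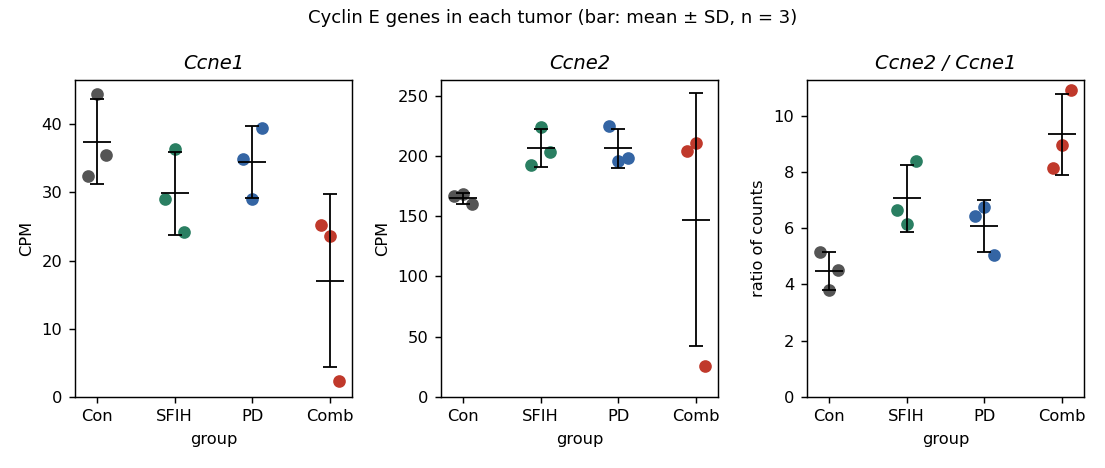
Points are the 3 tumors of each group for Ccne1 in CPM, Ccne2 in CPM and the ratio of their reads, with the mean and SD. The low point of Comb in the left and middle panels is replicate 3, which has the highest point in the right panel, at 10.9.

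The further genes of replication and the mitosis genes were read in the same way. Of 58 further replication genes and 25 mitosis genes, none passed the threshold in any of the 8 comparisons of 12 tumors. In Comb against Con, 51 of 58 and 24 of 25 were under 0, with medians of −0.49 and −0.64, and without Comb replicate 3 these were 34 and 17, with −0.08 and −0.12. Over 12 tumors an unadjusted p under 0.05 was reached by 2 of the 58 in Comb against Con and by 3 in Comb against PD, all lower in Comb, where the shares of all genes were 25.3% and 18.0%. Ticrr, which recruits CDC45 to origins, had −0.79 (SE 0.33, adjusted p = 0.17) against Con and −0.89 (SE 0.33, adjusted p = 0.245) against PD by edgeR, and −0.46 and −0.56 without Comb replicate 3. Mcmbp, which binds MCM subunits, had −0.49 (SE 0.22, adjusted p = 0.196) and −0.62 (SE 0.22, adjusted p = 0.243) by edgeR, and −0.25 and −0.38 without that tumor. The third gene against PD was Mcm9, at −1.01 (SE 0.46, adjusted p = 0.276), or −1.03 without it. For any anti-PD-1 in the 11 tumors, Rb1, the retinoblastoma protein that restrains E2F, had −0.55 (SE 0.14, adjusted p = 0.0798), and −0.43 (SE 0.17, adjusted p = 0.201) over 12. Top1, which relaxes DNA ahead of the fork, had 0.33 (SE 0.09, adjusted p = 0.0887) in the 11 and 0.15 (SE 0.23, adjusted p = 0.762) over 12, also by edgeR. Without Comb replicate 1, the threshold was passed by 4 of the 58 genes against Con, 2 against PD, 2 against SFIH and 1 for any anti-PD-1, all lower, against 28.5%, 15.2%, 22.5% and 17.1% of all genes, and by none of the 25 mitosis genes.

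Mki67, a marker of cycling cells, was at 496, 400.4 and 371 CPM in the Con tumors, 237, 325 and 332 with SFIH, 523, 356 and 491 with PD, and 303, 249 and 17.8 with Comb. In CPM all 3 SFIH tumors and all 3 Comb tumors were below all Con and PD tumors. Divided by the TMM factors (0.982 and 1.12), SFIH replicate 3 lay above Con replicate 3. With any SFIH in the 11 tumors it differed by −0.58 (SE 0.14, adjusted p = 0.115), and Bub1b, a kinase of the spindle checkpoint, by 0.67 (SE 0.15, adjusted p = 0.101) in the other direction (edgeR). Bub1b was at 38.2, 57.7 and 64.4 CPM in the Con tumors, 103, 141 and 86.5 with SFIH, 70.8, 51.7 and 56.1 with PD, and 82.6, 59.5 and 3.46 with Comb, with all SFIH tumors above the other 9.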

How the data were processed

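Per the labels, RNA of 12 tumors was made into QuantSeq 3′ libraries and read as single 75 bp reads on a Illumina NextSeq instrument. The deposited values are raw counts of reads for each gene symbol, 1 column per tumor. The aligner, counting tool, strand setting, genome build and annotation are not given in the sources used here. The table has no columns of other samples. Columns were assigned to groups by their names and the labels. The replication genes and all lists were chosen with earlier results of these data known.

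Counts were fitted with edgeR 4.0.16 in R 4.3.3 (TMM, filterByExpr, quasi-likelihood test, two-sided) on all 12 tumors with a coefficient per group, and p-values were adjusted by Benjamini-Hochberg over 13464 genes, or 13621 without Comb replicate 3. Standard errors were derived from the log2 fold change and the F statistic. Totals were 7870741 to 12261032 reads. CPM divides by the total without TMM, and levels of single genes were compared by exact permutation of log2(CPM + 1). A zero was taken as a floor of 3 reads. Poisson intervals are exact. Named genes were up to 3 per direction with the smallest p among those with an unadjusted p under 0.05 in a comparison, the gene with the highest mean CPM of each step, and Mki67, and any other gene was named after its values were seen. DESeq2 1.42.0 and other scalings, filters and left-out tumors were alternatives. The steps were tested on simulated data. Figures and tables used Python 3.11.15, numpy 2.4.6, pandas 2.3.3, scipy 1.17.1 and matplotlib 3.10.9.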

Additional observations from a re-analysis of the deposited data

Results flagged for a closer look

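The summed CPM of the 45 replication genes in Comb replicate 3, 754, was far below the rest both among the 6 tumors given anti-PD-1 and among the 6 given SFIH. Its gap to the next tumor was 0.644 of the whole range in the first set and 0.654 in the second, past the 95% critical value of Dixon's test. Both sets hold this same tumor, and chance alone flags about 1 in 20 sets. The next lowest tumor in both was Comb replicate 2, at 3773 CPM.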

How the results depend on the processing

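The count of replication genes past the threshold was 0 in all 8 comparisons with DESeq2, DESeq2 size factors, no TMM, upper-quartile scaling, no filter, a mean of at least 50 counts, and a fit of the compared groups alone. With each tumor left out in turn it was 0 to 2 in Comb against Con, 0 to 1 in Comb against SFIH and 0 to 1 for any anti-PD-1, the higher counts coming without Comb replicate 1, and 0 in the other comparisons. Fits without Comb replicate 3 by DESeq2, without TMM or with the block were added after the data were seen, and DESeq2 then called 1 gene, Ccne2, in Comb against Con (0.52) and 1, Ccne2, for any anti-PD-1 (0.31). No TMM moved the median log2 fold change of all genes to −0.29 against Con, −0.16 against PD, −0.31 against SFIH, −0.21 for any anti-PD-1 and −0.20 for the interaction, and that of the replication genes to −0.71, −0.64, −0.72, −0.42 and −0.66.

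Some log2 fold changes of named genes had the opposite sign, and the cause was not tested. Ccne2 in Comb against Con was −0.17 without TMM, −0.12 with the replicate block and −0.41 to 0.50 with a tumor left out. Ccne2 for any anti-PD-1 was −0.082, −0.022 and −0.15 to 0.30 in the same order. Rpa2 for any anti-PD-1 was −0.098 without TMM and −0.10 to 0.24 with a tumor left out, and Gins4 in Comb against PD was −0.0053 to 0.35. Rpa2 in Comb against SFIH was 0.0096 with DESeq2, 0.0096 with its size factors, 0.028 with the minimum of 50, 0.015 in the compared groups and −0.31 to 0.36 with a tumor left out. In the added fits it was 0.38 (DESeq2), 0.20 (no TMM) and 0.35 (block). Cdc6 for any SFIH was 0.0046 with upper-quartile scaling, −0.28 to 0.27 with a tumor left out, and 0.28, 0.25 and 0.25 in the added fits. Ung in Comb against Con passed the threshold without Comb replicate 1 at −1.50.

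The labels number the tumors 1 to 3 in each group, and the deviations of the 18 same-numbered pairs from their group means correlated at −0.288 to 0.409, with 6 of them over 0.1. Only 2 of 12 tumors correlated best with their own number, so the numbers were not taken to pair the tumors. A fit with the replicate block called 0 replication genes in each of the 8 comparisons, with a median log2 fold change of −0.64 in Comb against Con. The number of tumors, 3 in each group, limits the precision of single genes, as their standard errors show.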
